A study of Mus musculus with 6 samples.

Results

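The squamous lineage transcription factors examined here are 9 genes, Trp63, Tfap2a, Tfap2c, Klf4, Klf5, Grhl1, Grhl3, Pitx1 and Gata3, picked by name from a raw count table of 55385 mouse genes. All 9 were found in the table by their Ensembl identifiers, and 9 of 9 passed the filter on low counts that 18504 genes passed. The table holds bulk RNA-seq of 6 libraries from PDVC57, a mouse squamous carcinoma line derived from keratinocytes. The labels give 3 libraries the genotype Sox2 KO (knockout, in which the gene is disrupted) and 3 the genotype Sox2 overexpression. No unmodified PDVC57 library was analysed here, so every difference is between Sox2 overexpression and Sox2 loss. According to the series' design text the cells were recovered from grafted tumours as Sox2low and Sox2Hi cells. The labels do not say how Sox2 was overexpressed, whether a line was 1 clone, or whether the libraries of a group came from separate tumours, so p-values measure only the spread between these libraries, which may be technical.

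Stratified squamous epithelium is kept as such by a small set of transcription factors. The p53-family factor p63, encoded by Trp63, holds cells in the basal keratinocyte state. AP-2 factors and p63 share many enhancers in epidermis, Krüppel-like factors divide between proliferating basal cells (Klf5) and differentiating cells (Klf4), and grainyhead-like factors switch on genes of junctions and of the skin barrier. Gata3 acts in epidermis and hair follicle and also in lymphocytes, and Pitx1, a homeodomain factor of hindlimb and mouth, is known in squamous carcinoma stem cells, where Sox2 is expressed as well.

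RefSeq promoter windows on GRCm38.p6 were at hand for 5 of the 9 genes (Gata3, Klf4, Grhl1, Grhl3 and Tfap2a), in 7 windows. Each runs from 250 bases before to 50 bases after an annotated start, and a gene can have several starts. The 3 printed here belong to Grhl1, the factor with the largest rise, and to Klf4 and Gata3, which did not rise. Like most tested genes, Klf4 and Gata3 were lower against epithelial genes, as described further on. Capitals mark matches, on either strand, to an AP-2 motif (GCCNNNGGC), a KLF GC box (GGGCGGGG) or a KLF CACC box (CCACCC). The Grhl1 window is chr12:24572037-24572336 on the plus strand, the Klf4 window chr4:55532426-55532725 on the minus strand, and the Gata3 window chr2:9878551-9878850 on the minus strand. The Gata3 window lies inside the annotated span of the gene (9857078 to 9890034) and not at its outermost start.
Grhl1: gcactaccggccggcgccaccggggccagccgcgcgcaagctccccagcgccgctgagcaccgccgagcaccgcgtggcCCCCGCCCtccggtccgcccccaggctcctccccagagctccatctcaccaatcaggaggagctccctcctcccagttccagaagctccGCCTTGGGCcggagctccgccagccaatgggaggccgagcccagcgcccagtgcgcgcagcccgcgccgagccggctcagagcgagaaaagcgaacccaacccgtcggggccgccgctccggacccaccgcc
Klf4: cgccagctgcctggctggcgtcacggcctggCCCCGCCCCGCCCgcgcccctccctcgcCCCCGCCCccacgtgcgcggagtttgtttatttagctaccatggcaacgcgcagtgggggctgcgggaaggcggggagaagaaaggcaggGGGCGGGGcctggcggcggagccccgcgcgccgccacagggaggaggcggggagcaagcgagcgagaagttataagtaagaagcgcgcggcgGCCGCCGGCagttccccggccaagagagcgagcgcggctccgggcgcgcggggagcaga
Gata3: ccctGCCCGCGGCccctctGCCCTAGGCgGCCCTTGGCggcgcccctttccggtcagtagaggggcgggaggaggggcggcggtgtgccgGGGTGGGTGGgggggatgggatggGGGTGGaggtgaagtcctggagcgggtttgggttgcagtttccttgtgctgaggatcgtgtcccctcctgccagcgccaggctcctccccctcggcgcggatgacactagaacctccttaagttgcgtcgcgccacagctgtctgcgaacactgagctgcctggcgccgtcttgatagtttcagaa

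The Klf4 window held 4 matches to the GC box, of which the pair at positions -219 to -212 and -214 to -207 from the start overlap, and 1 AP-2 match at -9 to -1. The Gata3 window held 3 AP-2 matches and 3 CACC boxes, 2 of which overlap, and the printed Grhl1 window 1 AP-2 match and 1 GC box. Another Grhl1 window, beginning at 24580469, held 1 CACC box and no AP-2 or GC box match. Of the 7 windows of these factors, 3 held the AP-2 motif, 2 the GC box and 3 the CACC box. All AP-2 and GC box matches lay in the printed windows, and the Tfap2a windows had no match to any motif. Of 32851 promoter windows of the same length, 16.6% held the AP-2 motif, 17.6% the GC box and 31.5% the CACC box. A SOX motif (ACAATG, in 12.6% of windows), a grainyhead motif (ACCGGTT, 1.02%), a GATA motif (AGATAA, 11.2%), a PITX motif (TAATCC, 7.06%) and a p53-family motif (CATGNNNNNNCATG, 0.712%) had no match in the 7 windows. These matches are letters in a window and were not compared with binding.

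The libraries held 31247976 to 38543221 counts over mouse genes. Levels are given in CPM (counts relative to the library total, scaled by TMM, a normalization to the bulk of genes), and 3 counts, the most that a count of 0 allows, are 0.0758 to 0.101 CPM. Sox2 itself was at 1.08 ± 0.377 CPM with knockout and 103 ± 24.9 CPM with overexpression (SD, n = 3 each). The epithelial part of the samples was read from 10 markers of keratinocytes or squamous carcinoma, all of which passed the count filter. These include general epithelial genes (Krt8, Krt18, Epcam and Cdh1), so they do not establish a keratinocyte identity. Their summed level was 4339 to 7175 CPM with knockout and 11910 to 16520 CPM with overexpression, and 7 of them rose. Markers of several other cell types were lower with overexpression. The 12 fibroblast markers summed to 56260 to 84030 CPM with knockout and 260 to 408 CPM with overexpression, 12 of 12 fell, and Col1a1 was at 23278 ± 3985 and 124 ± 25.6 CPM (SD, n = 3 each). White blood cell markers summed to 47.4 to 292 CPM with knockout and 15.8 to 30.1 CPM with overexpression. T cell and innate lymphoid markers summed to 227 to 544 and 3.18 to 4.29 CPM. Cd3e was at 9, 16 and 83 counts in the knockout libraries and at most 1 count with overexpression. Thy1 is in both the fibroblast and the T cell list, so those sums are not separate. Endothelial markers summed to 40.04 to 135 and 14.02 to 20.7 CPM and skeletal muscle markers to 21.4 to 34.4 and 2.07 to 6.32 CPM. Schwann cell and melanocyte markers differed in the other direction by their sums alone, 59.8 to 97.6 and 130 to 173 CPM. Of the 5 tested, 1 was higher and 0 lower, and their median log2 fold change was -0.59. Sox10 had no more than 2 counts in an overexpression library. In bulk RNA, fewer cells of a type and less RNA per cell cannot be told apart, and this holds for each epithelial gene below.

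Of the 9 factors, 5 rose with Sox2 overexpression (Grhl1, Trp63, Klf5, Tfap2a and Pitx1), 0 fell (0 at an unadjusted p under 0.05 and 0 with DESeq2), and 4 did not pass the threshold (Tfap2c, Grhl3, Klf4 and Gata3). The test was the quasi-likelihood test of edgeR with Benjamini-Hochberg adjustment over all 18504 tested genes and a threshold of 0.05. The same rule called 13.6% of all tested genes higher, 18.0% lower and 31.6% in either direction. The median log2 fold change of the 9 was 0.96, beside -0.016 for all tested genes and 1.11 for a list of 26 epithelial genes that holds no transcription factor and of which 20 rose. The overexpression and knockout libraries did not overlap for 6 of the 9 factors, beside 50.9% of all tested genes. With 1 library left out, between 4 and 6 of the 9 rose and 0 fell.

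**Figure D1:**
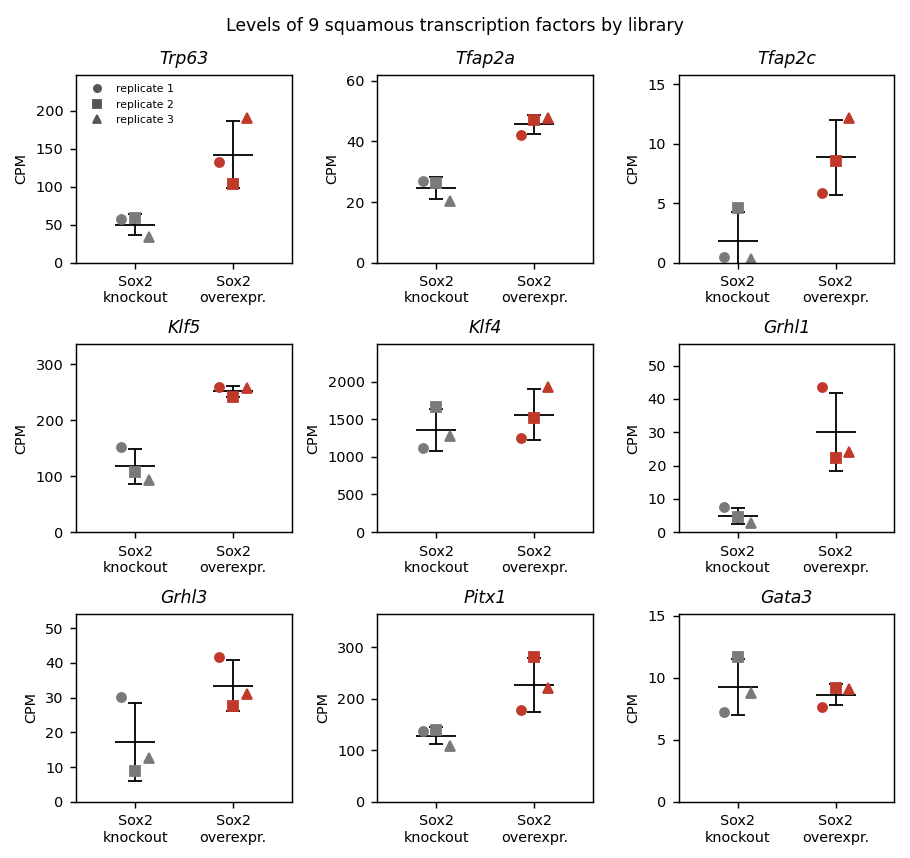
Level of each factor in CPM (linear axis from 0) in the 3 Sox2 knockout libraries (grey) and the 3 Sox2 overexpression libraries (red). Symbols mark the replicate number, horizontal lines the mean and bars the SD. The groups are apart for Trp63, Tfap2a, Tfap2c, Klf5, Grhl1 and Pitx1, and overlap for Klf4, Grhl3 and Gata3.

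Trp63 (ENSMUSG00000022510, chromosome 16, 25683763 to 25892102, plus strand, GENCODE M21 on GRCm38) has 8 annotated transcripts, and the gene's count does not separate the forms with and without the transactivation domain. It had 57.9, 58.6 and 33.7 CPM in knockout replicates 1 to 3 and 132, 103 and 190 CPM in overexpression replicates 1 to 3. The 3 overexpression values exceeded the 3 knockout values, with replicate 3 the lowest of one group and the highest of the other. The rise was 2.84-fold, or 1.504 on the log2 scale (standard error 0.28, edgeR adjusted p = 0.00387). Its adjusted p stayed at or under 0.0121 in the 6 fits that left out 1 library.

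The AP-2 factors bind as dimers at enhancers of ectoderm and epidermis. Tfap2a (ENSMUSG00000021359, chromosome 13, 40715302 to 40738376, minus strand) had 27.0, 26.3 and 20.3 CPM with knockout and 42.03, 47.1 and 47.8 CPM with overexpression. These values were close within each group, with a coefficient of variation of 15% and 6.88%. It rose by 0.90 on the log2 scale (standard error 0.16, edgeR adjusted p = 0.00339). Its exons overlap those of 3 genes on the other strand by at most 380 bases, and the strand setting of the counting is not given in the sources used here.

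Tfap2c (ENSMUSG00000028640, chromosome 2, 172549593 to 172558622, plus strand) had 16, 140 and 12 counts in the knockout libraries and 192, 253 and 481 counts in the overexpression libraries, or 0.468, 4.62 and 0.328 CPM against 5.85, 8.55 and 12.2 CPM. The groups did not overlap, but knockout replicate 2 was 14.1 times as high as knockout replicate 3. The difference of 2.31 on the log2 scale (standard error 0.87) did not pass the threshold (edgeR, adjusted p = 0.0754). The mean with knockout, 1.81 CPM, was 0.398 CPM without replicate 2, and the difference was then 4.47 on the log2 scale with an adjusted p of 0.000508 (0.000508 to 0.254 over the alternatives, with the fit without a filter, 0.00062, among those that passed). The same library had 120 counts of the neural crest factor Sox10, against 17 and 10 in the other knockout libraries, while the summed Schwann cell and melanocyte markers were lowest there (97.6, 59.8 and 77.5 CPM in knockout replicates 1 to 3). It also had 37 counts of the p53-family gene Trp73, against 9 and 12. The part of other cells in that value was not tested.

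Klf5 (ENSMUSG00000005148, chromosome 14, 99298691 to 99315036, plus strand), the Krüppel-like factor of proliferating basal cells, had 152, 107 and 93.5 CPM with knockout and 259, 241 and 257 CPM with overexpression. The overexpression values lay within a coefficient of variation of 3.92%, the tightest of the 9 factors in either group, and all were above the knockout values. It rose by 1.10 on the log2 scale (standard error 0.20, edgeR adjusted p = 0.00307).

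Klf4 (ENSMUSG00000003032, chromosome 4, 55527143 to 55532466, minus strand), the factor of differentiating keratinocytes and of pluripotency reprogramming, had 1117, 1665 and 1281 CPM with knockout and 1245, 1509 and 1921 CPM with overexpression. The groups overlapped throughout, and the log2 fold change was 0.20 with a 95% interval from -0.32 to 0.73 (edgeR, adjusted p = 0.534). The interval leaves room for a modest change in either direction, so equality was not shown.

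Grhl1 (ENSMUSG00000020656, chromosome 12, 24572283 to 24617391, plus strand), a grainyhead-like factor of desmosomal genes, had 7.58, 4.52 and 2.74 CPM with knockout and 43.4, 22.3 and 24.1 CPM with overexpression. All overexpression libraries were above all knockout libraries, and replicate 1 was the highest of each group. It rose 6.06-fold, the largest rise of the 5, or by 2.60 on the log2 scale (standard error 0.40, edgeR adjusted p = 0.00142).

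Grhl3 (ENSMUSG00000037188, chromosome 4, 135541888 to 135573630, minus strand), needed for barrier formation and wound closure, had 30.2, 8.88 and 12.6 CPM with knockout and 41.7, 27.6 and 31.0 CPM with overexpression. Knockout replicate 1 reached into the overexpression range, while the other knockout libraries were below it. The difference was 0.96 on the log2 scale (standard error 0.41) and did not pass the threshold (edgeR, adjusted p = 0.110). The mean with knockout, 17.2 CPM, was 10.7 CPM without replicate 1, the difference was then 1.65 on the log2 scale and the adjusted p 0.0023 (0.0023 to 0.79 over the alternatives, with DESeq2, 0.0466, and the fit without a filter, 0.00697, among those that passed).

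Pitx1 (ENSMUSG00000021506, chromosome 13, 55825051 to 55836192, minus strand) had 138, 139 and 109 CPM with knockout and 179, 281 and 221 CPM with overexpression. The groups were apart, and its rise of 0.82 on the log2 scale (standard error 0.20) was the smallest of the 5 (edgeR, adjusted p = 0.0142). The call was lost without knockout replicate 3 (adjusted p = 0.0543, 0.00114 to 0.141 over the alternatives). Its exons share at most 165 bases with a gene on either strand.

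Gata3 (ENSMUSG00000015619, chromosome 2, 9857078 to 9890034, minus strand) had 7.23, 11.7 and 8.73 CPM with knockout and 7.65, 9.12 and 9.07 CPM with overexpression. The knockout libraries held both the lowest and the highest value. Its log2 fold change was -0.095 with a 95% interval from -0.63 to 0.44 (edgeR, adjusted p = 0.784). Lymphocytes are a known source of Gata3. Their marker sum, which includes Thy1 of the fibroblast list, was 227, 325 and 544 CPM in knockout replicates 1 to 3. White blood cell markers summed to 47.4, 86.9 and 292 CPM there. Both sums were highest in replicate 3, where Gata3 was not highest. The part of those cells in the Gata3 value was not tested.

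Levels of different genes were set side by side as CPM per kilobase of exon. With overexpression the order was Klf4 (511 ± 112), Pitx1 (85.5 ± 19.4), Klf5 (48.5 ± 1.90), Trp63 (16.9 ± 5.28), Grhl3 (12.0 ± 2.64), Tfap2a (9.31 ± 0.640), Grhl1 (5.41 ± 2.11), Tfap2c (2.41 ± 0.859) and Gata3 (2.17 ± 0.210), each as CPM per kilobase with its SD and n = 3. Klf4 lay far above the rest in every library. Of neighbours in this order, Trp63 and Grhl3 overlapped, as did Tfap2c and Gata3, and the libraries of the other neighbours did not overlap. With knockout the order of the upper 3 was alike (Klf4 444 ± 92.3, Pitx1 48.4 ± 6.50, Klf5 22.6 ± 5.91 CPM per kilobase), Grhl3 (6.17 ± 4.08), Trp63 (5.97 ± 1.69) and Tfap2a (5.003 ± 0.749) could not be ordered within their spread, and Gata3 (2.31 ± 0.566) stood above Grhl1 (0.893 ± 0.442) and Tfap2c (0.491 ± 0.663), whose libraries overlapped. Every Grhl1 value was under every Gata3 value with knockout and above it with overexpression.

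**Figure D2:**
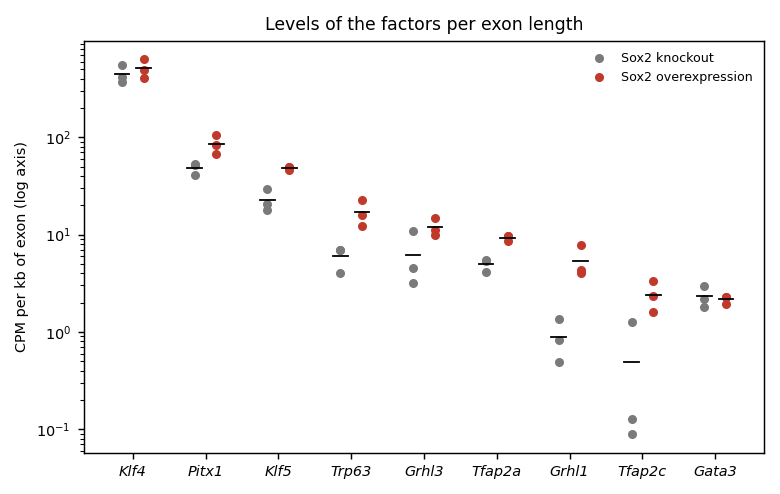
Levels of the 9 factors in CPM per kilobase of exon on a log axis, with 1 point per library (grey, knockout; red, overexpression) and a line at each mean. Klf4 is the highest in both groups, and Grhl1 lies under Gata3 with knockout and above it with overexpression.

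The factors were also measured against the epithelial part of each library, by scaling each library to the median ratio of the 26 epithelial genes in place of TMM. Their summed level was 7139 to 10520 CPM in the knockout libraries and 16010 to 21540 CPM in the overexpression libraries. This scaling treats those genes as constant per epithelial cell, which was not tested, and 20 of the 26 are among the p63 or grainyhead targets listed further on. It moved the median over the 18504 tested genes from -0.016 to -1.16 on the log2 scale and the share of higher genes among all calls from 43.1% to 2.46%. On this scale 1 of the 9 factors was higher, Grhl1, and 2 were lower, Klf4 and Gata3. Of all 18504 tested genes, 353 were higher and 14017 lower. The falls of Klf4 (-0.96) and Gata3 (-1.27) were near the median of all tested genes (-1.16), so they do not set these factors apart. Grhl1 was 2.84-fold higher (log2 fold change 1.505, standard error 0.38, edgeR adjusted p = 0.00458), Klf4 1.94-fold lower (-0.96, 0.29, adjusted p = 0.0126) and Gata3 2.42-fold lower (-1.27, 0.32, adjusted p = 0.00422).

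Relative to its mean over the 6 libraries, epithelial-scaled Gata3 was at 0.943, 1.93 and 1.37 with knockout and at 0.532, 0.535 and 0.687 with overexpression. Klf4 was at 0.926, 1.76 and 1.28 against 0.551, 0.563 and 0.925, so that the lowest knockout and the highest overexpression library were nearly level. Grhl1 was at 0.712, 0.54 and 0.31 against 2.18, 0.943 and 1.32, with no overlap. The calls of Grhl1 and Gata3 held on this scale when any 1 library was left out, with adjusted p-values up to 0.0239 and 0.0371. That of Klf4 was lost without knockout replicate 2 (0.0655) or overexpression replicate 2 (0.0509). Trp63 (0.40), Pitx1 (-0.35), Klf5 (-0.018), Tfap2a (-0.25), Tfap2c (1.08) and Grhl3 (-0.11) had epithelial-scaled log2 fold changes that did not pass the threshold. Scaling only to the 6 epithelial genes that are in neither target list, an alternative added after the data were seen, called the same number in each direction.

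**Figure D3:**
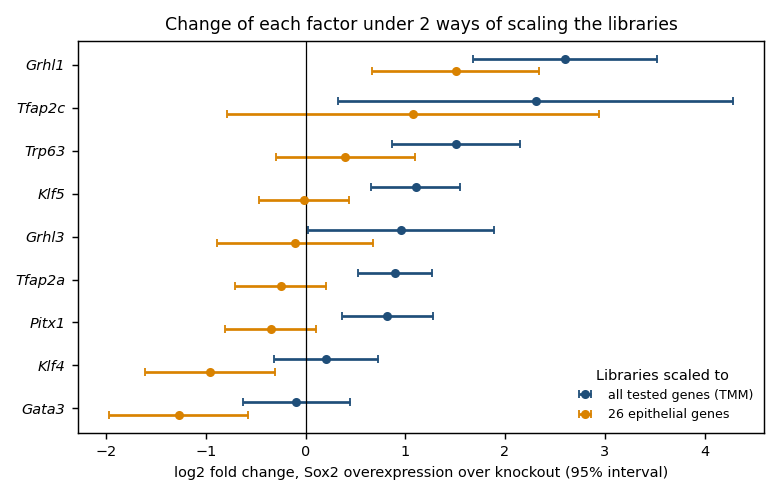
Log2 fold change of each factor, Sox2 overexpression over knockout, with its 95% interval, when libraries were scaled to all tested genes by TMM (blue) or to 26 epithelial genes (orange). Only the Grhl1 interval lies above 0 under both, and the Klf4 and Gata3 intervals lie under 0 with the epithelial scaling alone.

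Ratios between 2 factors of the same library do not depend on the scaling of libraries. Values here are log2 ratios of CPM per kilobase, given as descriptions. Klf4 over Klf5 was 3.65, 4.73 and 4.55 with knockout and 3.04, 3.42 and 3.67 with overexpression, so that the mean was 4.31 ± 0.58 with knockout and 3.38 ± 0.32 with overexpression (SD, n = 3 each) and the groups overlapped. Grhl1 over Grhl3 was -2.98, -1.96 and -3.19 with knockout and -0.93, -1.30 and -1.35 with overexpression, with no overlap. Grhl1 over Grhl2, the third grainyhead-like factor of epithelium, was -1.90, -1.94 and -3.04 with knockout and -0.47, -1.25 and -1.04 with overexpression. Grhl3 over Grhl2 was 0.42 ± 0.58 with knockout and 0.27 ± 0.21 with overexpression (SD, n = 3 each), which overlap. Tfap2a over Tfap2c was 5.43, 2.09 and 5.54 with knockout and 2.43, 2.05 and 1.56 with overexpression, and knockout replicate 2 lay among the overexpression libraries. Pitx1 over Trp63 was 2.91, 2.91 and 3.35 against 2.10, 3.10 and 1.87, which overlap.

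**Figure D4:**
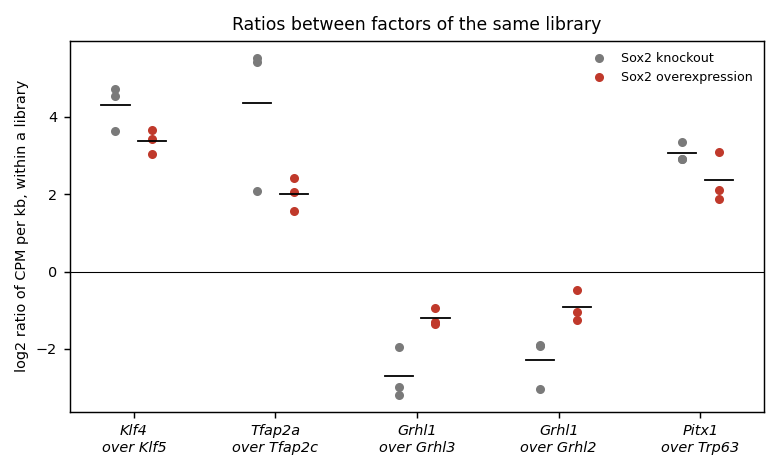
Log2 ratios of CPM per kilobase between pairs of factors within each library (points) with group means (lines), for knockout (grey) and overexpression (red). The ratios of Grhl1 over Grhl3 and over Grhl2 are higher with overexpression with no overlap of the groups, while 1 knockout library has the Tfap2a over Tfap2c ratio of the overexpression libraries.

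Among the genes of the lists described next, the profile most like each factor was taken as the smallest root mean square difference of centred log2 CPM over the 6 libraries, out of 161 genes. Klf4 and Gata3 were each other's nearest (0.19), followed by Cebpa for both (0.21 and 0.19). Tfap2a was nearest to Ppp1r13l (0.063) and Fosl1 (0.086), and Pitx1 to Ppp1r13l (0.11) and Etv4 (0.11). Pthlh was among the nearest to Trp63 (0.24). Klf5 was nearest to Kctd1 (0.16) and Esrp1 (0.17), Grhl3 to Tgm5 (0.27) and Ovol1 (0.27), Grhl1 to Elf3 (0.40) and Hopx (0.40), and Tfap2c to Trp73 (0.57) and Rhov (0.78). Over all tested genes, and with the named neighbour counted, 276 were at least as close to Gata3 as Klf4 was and 71 to Klf4 as Gata3 was, against 2 for Tfap2a with Ppp1r13l and 1 for Tfap2c with Trp73. These distances hold both the difference between the groups and the spread within them.

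A list of 42 other transcription factors of keratinocytes and squamous carcinoma, Sox2 included, had 39 tested genes, of which 18 rose, 9 fell and 12 did not pass the threshold, with a median log2 fold change of 0.54, beside 13.6% higher and 18.0% lower over all tested genes. With the epithelial scaling 6 of them were higher and 19 lower, beside 353 higher and 14017 lower of all 18504 tested genes. With TMM, the 4 rises with the smallest p-values were Sox2, Sox21, Pax9 and Hopx. The rise of Sox2 was set by the genotypes compared and is no finding of its own. Sox21, a SOX factor of hair shaft and airway, went from 6.32 ± 3.87 to 189 ± 27.1 CPM (SD, n = 3 each, log2 fold change 4.90). Pax9, a factor of oral and oesophageal epithelium, went from 4.21 ± 0.642 to 19.8 ± 1.26 CPM (2.23), and Hopx, a homeodomain-only protein of stem and suprabasal keratinocytes, from 10.7 ± 0.875 to 72.3 ± 36.7 CPM (2.76). The 4 falls with the smallest p-values were Tbx3, Maf, Satb1 and Runx3, with log2 fold changes of -5.92, -2.07, -7.74 and -5.85. Tbx3 is also a factor of limb mesenchyme, and Satb1 and Runx3 of lymphocytes. The fibroblast and lymphocyte marker sums given above, which share Thy1, were higher in the same knockout libraries. Satb1 had at most 2 counts in an overexpression library and was at least 70.8-fold lower against 3 counts per library. The knockout mean of Satb1, 7.17 CPM, was 4.07 CPM without replicate 3, and that of Runx3, 14.3 CPM, was 7.28 CPM. The part of other cells in these falls was not tested.

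Other genes of the same families as the 9 factors formed a further list. Of 28 paralogues 18 were tested, 6 rose and 2 fell, with a median log2 fold change of 0.12, where 13.6% of all tested genes rose and 18.0% fell. With the epithelial scaling 1 was higher and 13 were lower, beside 353 and 14017 of all 18504 tested genes. Grhl2 went from 35.2 ± 8.47 to 84.5 ± 8.17 CPM (SD, n = 3 each, log2 fold change 1.26, edgeR adjusted p = 0.00142), Klf3 rose by 0.88 on the log2 scale (adjusted p = 0.00419), and Trp73 by 2.79 on low levels (0.605 ± 0.536 to 4.13 ± 0.804 CPM). Epithelial-scaled, Grhl2 (0.13, adjusted p = 0.535) and Klf3 (-0.25, adjusted p = 0.311) did not pass the edgeR threshold. Gata2, known in endothelium and blood progenitors, had 45, 45 and 53 counts with knockout and 2, 5 and 6 with overexpression. Klf15 had 26, 49 and 79 counts with knockout and 0 in every overexpression library, at least 14.9-fold lower. Tfap2b, Tfap2d, Tfap2e and Pitx3 were among those that did not pass the count filter.

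Of 25 partners and regulators, all tested, 7 rose and 1 fell, with a median log2 fold change of 0.13, against the same shares over all tested genes (13.6% and 18.0%). With the epithelial scaling 0 were higher and 21 lower, beside 353 and 14017 of all 18504 tested genes. Ppp1r13l, which encodes the p53-family inhibitor iASPP, was at 61.2 ± 9.72 and 114 ± 15.3 CPM (SD, n = 3 each, log2 fold change 0.89). Cited2, a coactivator partner of AP-2, had a log2 fold change of 0.97, and Lmo4, a LIM-only partner of Grhl3 and other factors, one of 0.70. All 3 changed sign with the epithelial scaling (-0.26, -0.21 and -0.47), where Lmo4 was called lower (edgeR, adjusted p = 0.0423) and the other two did not pass. Zfpm2, a cofactor of GATA factors, fell by 0.92 on the log2 scale.

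Targets of the factors were examined in 3 lists taken from textbook knowledge but chosen with earlier results of these data known. Of 30 basal keratinocyte genes known as p63 targets, 29 were tested, 11 rose, 4 fell and 14 did not pass, with a median log2 fold change of 0.62. The shares over all tested genes were 13.6% higher and 18.0% lower. With the epithelial scaling the list had 3 higher and 14 lower, beside 353 and 14017 of all 18504 tested genes. Most genes used for that scaling are p63 or grainyhead targets, so these counts are partly fixed by it. Krt15, a keratin of basal stem cells, went from 5.57 ± 2.11 to 54.9 ± 17.6 CPM (SD, n = 3 each), Pthlh, the parathyroid hormone-like peptide, from 121 ± 28.5 to 442 ± 91.01 CPM and the plakophilin gene Pkp3 from 120 ± 10.5 to 271 ± 44.4 CPM, though its epithelial-scaled log2 fold change was 0.0098 (edgeR, adjusted p = 0.964). The defining basal keratins varied within groups: Krt5 was at 697 ± 447 and 1960 ± 724 CPM and Krt14 at 934 ± 550 and 1605 ± 661 CPM (SD, n = 3 each), with adjusted p-values of 0.0584 and 0.251 (edgeR). The 3 falls with the smallest p-values were Egfr (-1.17), Bmp7 (-0.93) and Nectin1 (-0.92), and the call was lost for Bmp7 without knockout replicate 1 (adjusted p = 0.053) or 2 (0.0544) and for Nectin1 without knockout replicate 2 (0.0717) or overexpression replicate 2 (0.0515). Over the alternatives the adjusted p lay from 0.000152 to 0.0544 for Bmp7 and from 0.000234 to 0.0717 for Nectin1.

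Late differentiation genes, some of them known targets of Klf4 and Grhl3, followed. Of 34 such genes 22 were tested, 13 rose, 1 fell and 8 did not pass, with a median log2 fold change of 1.90, beside -0.016 for all tested genes. Over all tested genes 13.6% rose and 18.0% fell. The cornified envelope precursor Sprr1a went from 18.5 ± 4.50 to 406 ± 73.0 CPM and Sprr2a1 from 1.22 ± 0.460 to 43.0 ± 6.06 CPM (SD, n = 3 each). Sprr3 had 0 counts in the knockout libraries and 337, 168 and 310 counts with overexpression, at least 80.0-fold higher against 3 counts per library. Sprr genes are near-identical copies in part, so reads could have been split between them. Sbsn fell by 1.16 on the log2 scale with an adjusted p of 0.0421, which missed the threshold when knockout replicate 2 (0.0744) or 3 (0.141), or overexpression replicate 2 (0.145) or 3 (0.101), was left out, and ranged from 0.000769 to 0.145 over the alternatives. Krt1, the main suprabasal keratin of epidermis, did not pass the count filter.

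Of 25 junction and barrier genes known as grainyhead-like targets, 24 were tested, 18 rose, 0 fell in the edgeR test (0 at an unadjusted p under 0.05 and 0 with DESeq2) and 6 did not pass, with a median log2 fold change of 1.16. Over all tested genes 13.6% rose and 18.0% fell. The list of 26 epithelial genes was much alike, with 20 higher, 0 lower and a median of 1.11. Prss8, a membrane serine protease of the epidermal barrier, went from 1.14 ± 0.332 to 24.2 ± 12.8 CPM, Rab25, a small GTPase of epithelial trafficking, from 22.7 ± 6.08 to 132 ± 34.2 CPM, and Ap1m2, an epithelial clathrin adaptor, from 11.1 ± 4.001 to 52.5 ± 13.4 CPM (SD, n = 3 each). Exons of Prss8 overlap those of Kat8 on the other strand. With the epithelial scaling, 5 genes of this list were higher and 4 lower, and the late differentiation list had 11 higher and 3 lower. Of all 18504 tested genes 353 were then higher and 14017 lower. Only 6 of the 26 scaling genes lie outside the p63 and grainyhead lists. The scaling thus partly fixes the counts of those lists, and they cannot be compared with late differentiation.

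**Figure D5:**
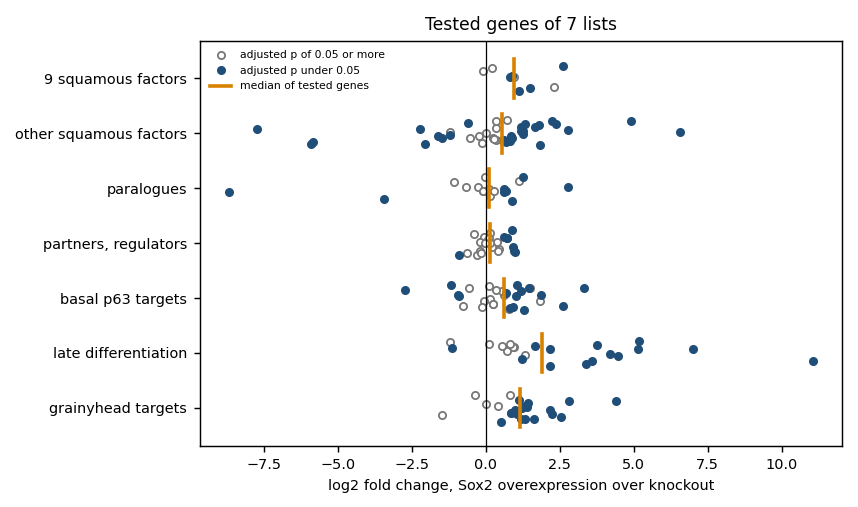
Log2 fold change of every tested gene in 7 lists, with filled points for an adjusted p under 0.05 in edgeR, open points for the others, and a bar at the median. The bars stand at 0.96 for the 9 factors, 1.90 for late differentiation, 1.16 for grainyhead targets, 0.62 for basal p63 targets and 0.54 for other squamous factors, with 0.12 for paralogues and 0.13 for partners.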

How the data were processed

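RNA was taken with a column kit for small samples and libraries were made with a low-input kit, per the labels' protocols. The authors deposited raw counts per gene, whole numbers in 1 column per library, and columns were matched to samples by the description in the labels. The submitters' processing notes name kallisto 0.44.0 and the build mm10 with no role. If kallisto made the table, its values are estimated counts made whole, which would split reads of similar genes. The strand setting is not given in the sources used here. The 96 rows that name no mouse gene, at most 2.23e-05% of a library's counts, were left out. Symbols, positions and exon lengths are those of GENCODE M21 (GRCm38).

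Genes were filtered with filterByExpr (minimum count 10, total 15), normalized with TMM and tested with edgeR 4.0.16 in R 4.3.3 (glmQLFit and glmQLFTest, group as the only term, 6 libraries), with Benjamini-Hochberg adjustment over all tested genes. Standard errors are the log2 fold change over the square root of F. On simulated data for the same 18504 genes the fit recovered 77 of 88 genes changed 4-fold and 47 of 112 changed 2-fold, and 2.36% of its calls were false. That simulation changed only 200 genes and took each gene's spread from the dispersion trend. In the real data 31.6% of tested genes were called, so these shares may not hold for the real libraries. The alternatives were RLE and upper-quartile normalization, epithelial scaling, no filter, the robust option for the dispersion, DESeq2 1.42.0, a block on the replicate number and leaving out each library. The members and lists were chosen with earlier results of these data known. Named from the lists were up to 4 genes per direction for other squamous factors and up to 3 for the other lists, by the smallest p-values past the threshold, and any other gene was named after its values were seen. Promoter windows are from RefSeq. Some genes of the lists are counted in them but not reported here by name.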

Additional observations from a re-analysis of the deposited data

Results flagged for a closer look

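The reporter row mCherry, which names no mouse gene and entered no comparison, had 8 counts in knockout replicate 3, more than the 3 counts that a count of 0 allows. It had 1 count in knockout replicate 2 and 0 in the other libraries.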

How the results depend on the processing

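Apart from the epithelial scaling, no alternative with all 6 libraries changed the direction of a factor, and Trp63, Klf5, Tfap2a, Pitx1 and Grhl1 kept their calls. With the epithelial scaling the log2 fold changes were 0.40 for Trp63, -0.35 for Pitx1, -0.96 for Klf4, -0.018 for Klf5, -0.25 for Tfap2a, -1.27 for Gata3 and -0.11 for Grhl3, and -0.25 for Klf3, -0.26 for Ppp1r13l, -0.21 for Cited2 and -0.47 for Lmo4, with 353 genes of all tested higher and 14017 lower. Counts higher and lower were then 1 and 2 of the 9 factors, 6 and 19 other squamous factors, 1 and 13 paralogues, 0 and 21 partners, 3 and 14 basal targets, 11 and 3 late differentiation genes and 5 and 4 grainyhead targets. By construction this scaling sets the epithelial level of the libraries equal, and most of its genes are in the basal or grainyhead target lists. Scaled to the 6 epithelial genes outside the target lists, Klf5 was at 0.046. Without a filter Tfap2c (2.32) and Grhl3 (0.98) passed the threshold, as Grhl3 did with DESeq2 (0.97), and 4 late differentiation genes and 2 grainyhead targets were lower. Adjusted p-values of called factors also shrank without a filter at like fold changes. For Trp63 the edgeR value was 6.69e-07 (log2 fold change 1.53) against 0.00387 (1.504), while Klf4 (0.562) and Gata3 (0.883) did not shrink. Passing there thus does not single out Tfap2c and Grhl3. Lower partners numbered 2 with upper-quartile normalization, with no filter, with DESeq2 and with the block, and lower late differentiation genes 2 with DESeq2. The causes were not tested.

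Over all tested genes the replicate numbers showed no clear pairing of the libraries. A pairing that acts on only some genes could not be seen in this way. The deviations of same-numbered libraries from their group means correlated at 0.0508, 0.0223 and -0.0399 for replicates 1, 2 and 3, and only replicate 1 of the knockout correlated best with its own number. With the replicate number as a block, 2416 genes were higher and 3177 lower, and Tfap2c (3.11) and Grhl3 (1.13) passed the threshold, with no other change of call among the factors.

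With 1 library left out, the number of all tested genes higher lay between 1446 and 2599, being lowest without knockout replicate 2 and 1610 without knockout replicate 3. Paralogues were 3 to 6 higher and 2 to 4 lower, partners 3 to 7 higher and 1 to 2 lower, basal targets 2 to 5 lower, late differentiation genes 0 to 4 lower and grainyhead targets 0 to 1 lower. Log2 fold changes lay from 0.65 to 0.99 for Pitx1, 1.82 to 4.47 for Tfap2c, -0.23 to 0.12 for Gata3 (reversed without knockout replicate 2 or overexpression replicate 1) and 0.65 to 1.65 for Grhl3. With the epithelial scaling as well they lay from -1.26 to -0.70 for Klf4, -0.13 to 0.12 for Klf5, 0.58 to 3.44 for Tfap2c and -0.34 to 0.38 for Grhl3, with 1 to 2 factors higher and 1 to 2 lower. At these depths a level under 0.0758 to 0.101 CPM, the most that a count of 0 allows, could not be told from 0.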

Other observations

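Some abundant Krüppel-like genes other than Klf4 were read after their values were seen. Klf5 and Klf3, which rose, are given above and are left out here. Klf6, an early response factor found in many cell types, was at 1054 ± 113 CPM with knockout and 872 ± 188 CPM with overexpression, and Klf2, known in endothelium and lymphocytes, at 393 ± 64.5 and 363 ± 102 CPM (SD, n = 3 each). Klf9 was at 140 ± 20.5 and 169 ± 16.2 CPM, and Trp53, the founding member of the p63 family, at 72.2 ± 5.01 and 77.0 ± 13.5 CPM (SD, n = 3 each). None of these 4 passed the threshold in edgeR, with log2 fold changes of -0.27, -0.11, 0.27 and 0.092. Their groups overlapped.

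Ovol1, a repressor of differentiating keratinocytes, had 1988, 570 and 710 counts in knockout replicates 1 to 3. Grhl3, with 1030, 269 and 459 counts, and Tgm5, with 372, 152 and 205, had their highest knockout value in the same replicate 1. Elf3, an ETS factor of epithelium, had 4061, 1398 and 2470 counts there. These genes were chosen after their values were seen.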
